A study of Rattus norvegicus with 18 samples.

Results

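The detrusor of rats with spinal cord injury (SCI) that received vehicle was compared with the detrusor of uninjured Control rats, with 3 libraries in each group. These 6 libraries were selected by their labels for tissue and group, from 18 libraries of total RNA in the series. SCI-vehicle rats were male Sprague Dawley rats that had a complete transection of the mid-thoracic spinal cord at 6 to 7 weeks of age and about 250 g, and then received daily intraperitoneal injections of 12 mM sodium bicarbonate buffer at pH 9.2 for 8 weeks. Control rats were male, age-matched and uninjured. The sources used here state no injection for the Control rats, so the injury and the injections cannot be told apart. The SCI-inosine group was of the same sex, strain, age at surgery, weight and injury, and received inosine at 225 mg/kg per day for 8 weeks. Its 3 detrusor libraries entered the fit only to estimate the spread. Together with its mucosa libraries they also defined the genes enriched in a layer, as described below. Libraries from mucosa, the other layer of the wall, were used for a test of whether the response differed between layers. The study describes the 3 samples of a condition as biological replicates, and the sources used here do not say which detrusor and mucosa libraries came from the same rat.

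The detrusor is the smooth muscle layer of the bladder, with the vessels, nerves and connective tissue between its bundles. It relaxes while the bladder fills and contracts to empty it. A spinal cord lesion above the sacral segments removes the control of both actions by the brainstem, after which reflex contractions and poor coordination with the sphincter raise the load on the muscle and the wall thickens. The mucosa lies on the inner side of the detrusor and consists of the urothelium, an epithelium, with the connective tissue under it, so that the plane of dissection sets how much of either layer a sample holds.

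Reads counted on genes totalled 4101639 to 6163986 in the Control libraries and 5087707 to 6575592 in the SCI-vehicle libraries, and 16475 to 17282 genes had a count in each. In detrusor of SCI-inosine replicate 2, only 14126 genes had a count at 6514244 reads, against 17842 and 17393 genes in replicates 1 and 3. This library entered both the estimate of the spread and the classes defined below. The features are Ensembl rat gene identifiers, and neither the counts nor the reference tables used here pair these identifiers with gene names. The functions of genes are therefore not described, and the tissue label could not be checked against muscle and urothelial markers. Instead, genes enriched in a layer were defined by the contrast of SCI-inosine mucosa and detrusor, libraries that do not belong to the groups compared. They were more than 4-fold apart at an adjusted p under 0.05 in edgeR (quasi-likelihood test). The scaling and spread of that fit came from all 18 libraries, so the classes are not fully independent of the groups compared. Of the 15740 genes tested, 1301 were mucosa-enriched, 564 were detrusor-enriched and 13875 were neither. SCI-inosine rats are injured too, so a gene raised in detrusor by injury can enter the detrusor-enriched class for that reason. Values are counts scaled to a common depth (CPM) after TMM scaling within each tissue, unless stated otherwise.

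SCI-vehicle replicate 1 stood apart from the other 5 libraries. The summed level of the mucosa-enriched genes, scaled over all 18 libraries, was 19653 CPM in this library. It was 6785 and 6132 CPM in SCI-vehicle replicates 2 and 3 and 6767, 5455 and 5700 CPM in Control replicates 1, 2 and 3. The summed level of the detrusor-enriched genes was 249925 CPM in SCI-vehicle replicate 1, against 307417 to 379654 CPM in the other 5 libraries. The place of each library between the layers was taken as a median over abundant mucosa-enriched genes (over 50 CPM in mucosa). With class and levels from the Control libraries (315 genes), SCI-vehicle replicate 1 lay at 25.9% of the distance from detrusor to mucosa. SCI-vehicle replicates 2 and 3 lay at 2.33% and 1.59%, and the Control libraries between -1.59% and 1.17%. This version shares the Control detrusor libraries with the comparison. With class and levels from the SCI-inosine libraries (236 genes), SCI-vehicle replicate 1 lay at 29.9% and replicates 2 and 3 at -3.94% and -4.95%. The Control libraries then lay between -6.52% and -5.36%. Results that rest on this library are given with and without it. In bulk tissue, fewer cells of a type and less RNA per cell cannot be told apart.

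**Figure D1:**
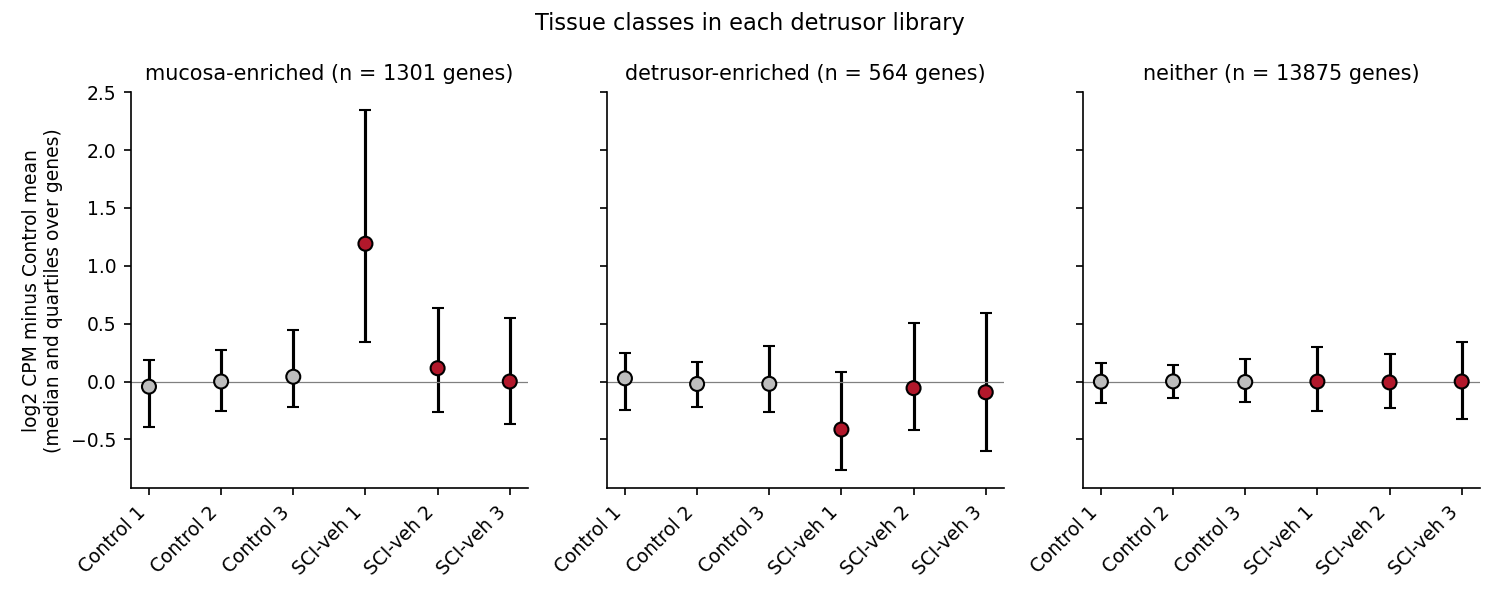
Each point is the median, over the genes of a class, of the log2 CPM of a detrusor library minus the mean of the 3 Control libraries, and the bars are the quartiles over genes. Grey points are Control and red points SCI-vehicle libraries. The mucosa-enriched genes lay 1.19 above the Control mean in SCI-vehicle replicate 1 and 0.12 and 0.00 above it in replicates 2 and 3, and the detrusor-enriched genes lay at -0.41, -0.06 and -0.09.

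Between SCI-vehicle and Control detrusor, 12 of 15740 genes (0.0762%) differed at a Benjamini-Hochberg adjusted p under 0.05 in edgeR (quasi-likelihood test). Of these, 7 rose (0.0445% of genes tested) and 5 fell (0.0318%). The rises were of 2.13-fold to 4.09-fold and the falls of 1.75-fold to 3.14-fold. In all 12 genes, the 3 SCI-vehicle libraries lay outside the range of the 3 Control libraries. Over all genes tested, they lay above that range for 9.82% and below it for 10.7%. Picking genes by p favours such separation. None of the 12 belonged to the mucosa-enriched class, 6 were detrusor-enriched and 6 were neither. Of all genes tested, 8.27% were mucosa-enriched, 3.58% detrusor-enriched and 88.15% neither. The lack of a mucosa-enriched gene among 12 is thus near the share of that class. The classes depended on the libraries that defined them. Taken from the Control libraries, 1 of the genes that rose was mucosa-enriched, 3 of the 12 (1 that rose and 2 that fell) were detrusor-enriched and 8 were neither.

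ENSRNOG00000000525 had the largest rise of the 12. Its level was 132.8, 118.3 and 159.1 CPM in Control replicates 1 to 3 and 398.4, 553.9 and 724.2 CPM in SCI-vehicle replicates 1 to 3. The lowest SCI-vehicle library was thus well above the highest Control library, and SCI-vehicle replicate 1 was the lowest of its group. The log2 fold change was 2.03 ± 0.22 (SE, n = 3 and 3 libraries; adjusted p = 0.0251 in edgeR (quasi-likelihood test)). The log2 fold change was 2.23 without SCI-vehicle replicate 1 (adjusted p = 0.00448 by the same test). In the SCI-inosine libraries, which share the injury, the gene stood at 377.5, 338.6 and 450.5 CPM.

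ENSRNOG00000007338 had the second largest rise. It was at 69.6, 53.5 and 61.97 CPM in Control and at 139.7, 216.2 and 236.3 CPM in SCI-vehicle libraries. The groups did not overlap, and SCI-vehicle replicate 1 was again the lowest of its group. The log2 fold change was 1.68 ± 0.21 (SE, n = 3 and 3 libraries; adjusted p = 0.0277 in edgeR (quasi-likelihood test)), and it was 1.88 without SCI-vehicle replicate 1. SCI-inosine libraries held 192.6, 240.1 and 262.1 CPM of this gene, all above the Control range.

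The other 5 genes that rose were expressed at lower levels, with Control means of 9.87 to 43.5 CPM and SCI-vehicle means of 27.2 to 98.1 CPM. Their log2 fold changes lay between 1.09 and 1.51.

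ENSRNOG00000016156 had the largest fall. It was at 217.6, 192.6 and 258.0 CPM in Control and at 69.5, 58.8 and 84.1 CPM in SCI-vehicle libraries. The highest SCI-vehicle library held less of this RNA than the lowest Control library, and SCI-vehicle replicate 1 lay between the other two of its group. The log2 fold change was -1.65 ± 0.23 (SE, n = 3 and 3 libraries; adjusted p = 0.0299 in edgeR (quasi-likelihood test)). It was -1.64 without SCI-vehicle replicate 1, where the adjusted p was 0.109. This gene was detrusor-enriched, with 10.8 to 23.2 CPM in Control mucosa.

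ENSRNOG00000056772 had the second largest fall, from 158.5, 172.2 and 127.6 CPM in Control to 74.1, 79.5 and 61.7 CPM in SCI-vehicle libraries. The groups did not overlap, and SCI-vehicle replicate 1 lay within the range of the other two. The log2 fold change was -1.09 ± 0.15 (SE, n = 3 and 3 libraries; adjusted p = 0.0299 in edgeR (quasi-likelihood test)) and -1.12 without SCI-vehicle replicate 1 (adjusted p = 0.109). It was neither mucosa-enriched nor detrusor-enriched.

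The other 3 genes that fell had Control means of 86.8, 121.6 and 491.2 CPM and SCI-vehicle means of 43.7, 62.2 and 280.0 CPM. The most abundant of them had the smallest fold of the 12, at a log2 fold change of -0.81 ± 0.12 (SE, n = 3 and 3 libraries).

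**Figure D2:**
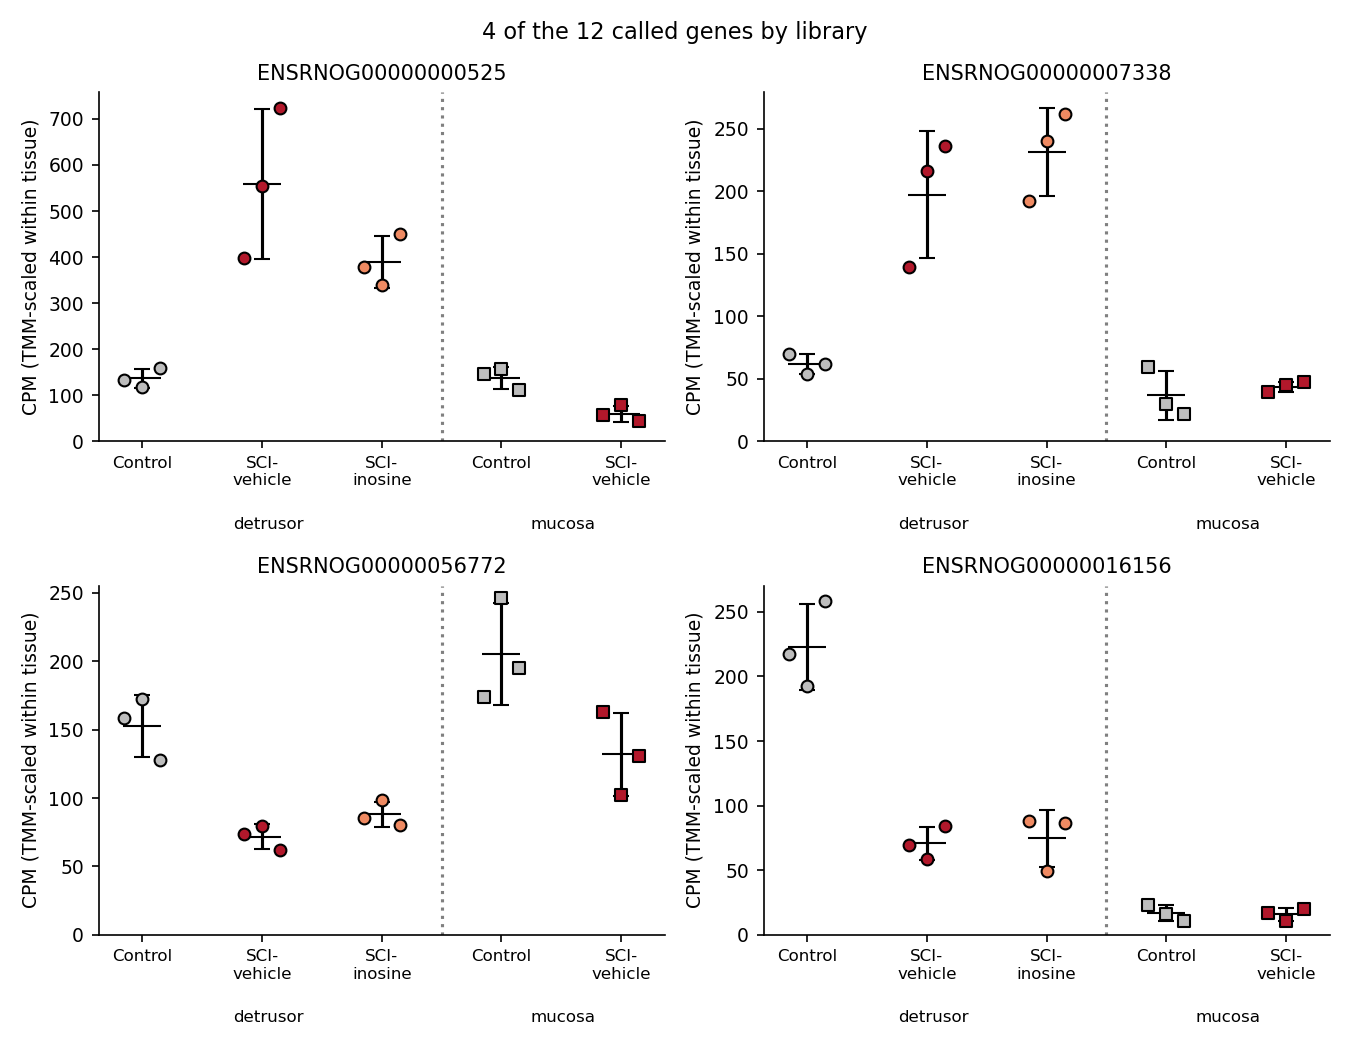
Points are libraries in replicate order, circles for detrusor and squares for mucosa, on a linear axis of CPM that starts at 0; the horizontal marks and bars are the mean and SD of 3 libraries. In detrusor, SCI-vehicle libraries lay above all Control libraries for ENSRNOG00000000525 and ENSRNOG00000007338 and below them for ENSRNOG00000056772 and ENSRNOG00000016156, and for each gene the SCI-inosine libraries lay on the same side of the Control range. The genes were picked for their change from these same Control libraries, so the SCI-inosine libraries are not an independent check.

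How many genes were called depended on the libraries and the tool. In edgeR (quasi-likelihood test), 0 genes had an adjusted p under 0.05 when Control replicate 1, or Control replicate 2, or else SCI-vehicle replicate 2 was left out (1257, 1165 and 2005 genes at an unadjusted p under 0.05, and 113, 84 and 363 genes at an adjusted p under 0.05 by DESeq2). The count was 4 without SCI-vehicle replicate 1, 3 of them among the 12, and 5 and 2 without Control replicate 3 and SCI-vehicle replicate 3. The unadjusted p of each of the 12 genes was at most 0.000392 whichever of the 6 libraries was left out, and none changed direction. These genes were picked by p in the same libraries and their groups did not overlap, so neither result is an independent check. DESeq2, the tool of the study, called 335 of 15693 genes (2.13%), of which 177 were higher (1.13%) and 158 lower (1.01%), and all 12 genes were among them. Without SCI-vehicle replicate 1, DESeq2 called 177 genes, 107 higher and 70 lower.

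At an unadjusted p under 0.05, 2042 genes (13% of those tested) differed, 1189 of them higher in SCI-vehicle (7.55%) and 853 lower (5.42%). These counts were 880 and 676 without SCI-vehicle replicate 1. They were 1438 and 1188 without SCI-inosine replicate 2, which entered the fit only for the spread. The counts are descriptive, since no correction was made for the number of genes. Of the 1189 genes, 320 stayed higher at this threshold whichever of the 6 libraries was left out, and of the 853, 285 stayed lower. Complete separation of the groups was found for 1546 genes that were higher (9.82%) and 1685 that were lower (10.7%) in all 3 SCI-vehicle libraries.

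The differences upward were larger than those downward. The median log2 fold change of the 1189 higher genes was 0.83, and 500 of them were more than 2-fold and 240 more than 4-fold higher. The median of the 853 lower genes was -0.56, and 156 were more than 2-fold and 40 more than 4-fold lower. The asymmetry was smaller without SCI-vehicle replicate 1, with medians of 0.76 and -0.65. In the same fit, 256 of 880 higher genes were more than 2-fold and 43 more than 4-fold higher, beside 161 and 52 of 676 lower genes, so that more genes were over 4-fold lower than over 4-fold higher. The median log2 fold change of all genes tested was 0.01 with and -0.01 without this library.

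The direction of the differences varied with the level of expression. Among the 6800 genes under 10 CPM, 401 were higher (5.90%) and 123 lower (1.81%) at an unadjusted p under 0.05. Among the 7277 genes of 10 to 100 CPM, 626 were higher (8.60%) and 457 lower (6.28%), and among the 1663 genes over 100 CPM, 162 were higher (9.74%) and 273 lower (16.4%). Without SCI-vehicle replicate 1, the shares were 2.41% higher and 1.94% lower in the lowest stratum and 10.8% higher and 10.4% lower in the highest. The turn toward lower levels among abundant genes was thus not seen in the counts from the remaining 5 libraries. Their median log2 fold change over 100 CPM was still -0.045, beside -0.062 with all libraries. Below 10 CPM and at 10 to 100 CPM the medians from the 5 libraries were -0.0006 and -0.006. Abundant genes differed more often than scarce ones in either set. A gene of low count has a wider error, and the part of depth in this order was not tested.

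**Figure D3:**
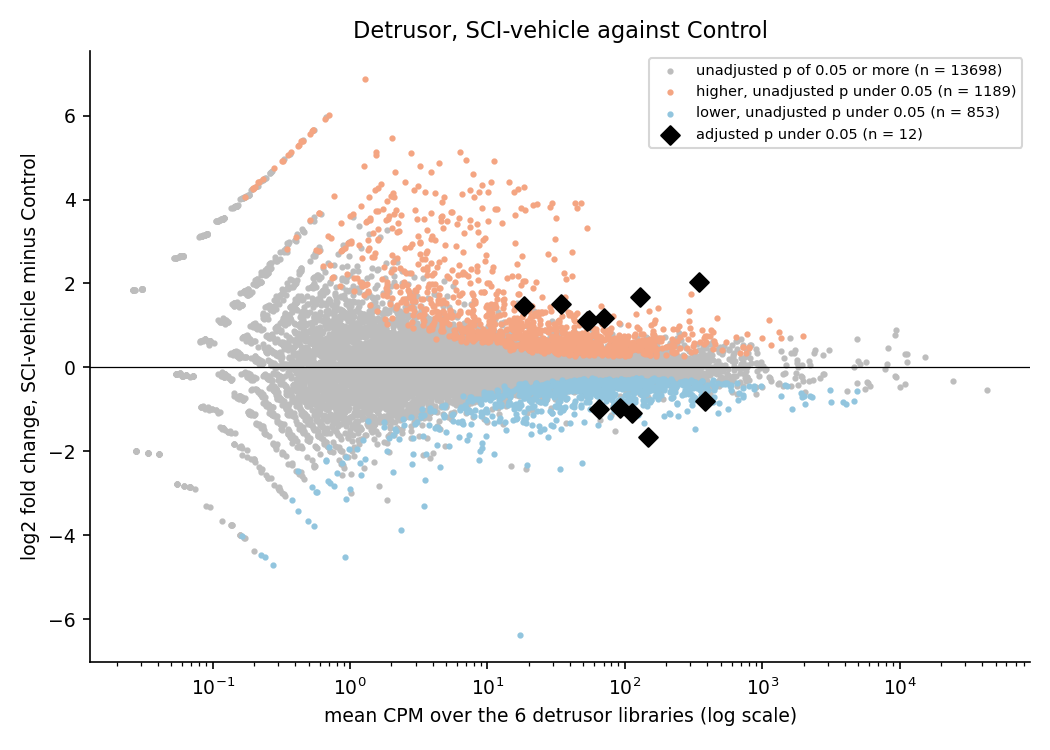
Each point is a gene, with its mean CPM over the 6 detrusor libraries on a log axis and its log2 fold change, SCI-vehicle minus Control, on a linear axis. Orange and blue points had an unadjusted p under 0.05 (1189 higher, 853 lower), and black diamonds are the 12 genes with an adjusted p under 0.05, which lay within 2.03 of 0 and were not the genes with the largest fitted changes.

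No gene went from undetected to abundant. Of all 32754 genes listed, 76 had a count in each SCI-vehicle library and in none of the Control libraries, and the highest of them totalled 22 counts over the 3 libraries. In the other direction there were 60 genes, of which the highest totalled 14 counts. At this depth such counts are near the limit of detection.

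Genes enriched in mucosa were more often higher than lower in SCI-vehicle. Of the 1301 mucosa-enriched genes, 281 were higher (21.6%) and 8 lower (0.615%) at an unadjusted p under 0.05, against 7.55% and 5.42% of all genes tested, and their median log2 fold change was 0.95. Without SCI-vehicle replicate 1, 48 of them were higher (3.69%) and 16 lower (1.23%), and the median was 0.10. Their share of the higher genes went from 23.6% to 5.46%, where 8.27% of all genes tested belonged to the class. Among the higher genes of DESeq2 the class held 56 of 177 with all libraries and 3 of 107 without SCI-vehicle replicate 1. With the class defined from the Control libraries instead, 392 of 1526 genes were higher and 1 lower, and 106 were higher and 7 lower without SCI-vehicle replicate 1. That definition picks genes that are low in the Control detrusor libraries of the comparison, which favours higher genes, so it is not an independent check.

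The spread of the mucosa-enriched genes also differed between the groups. The median SD of log2 CPM over 3 libraries was 0.45 in Control and 0.79 in SCI-vehicle for this class, whereas over all genes tested it was 0.27 and 0.26. In SCI-inosine these values were 0.58 and 0.33. The wider spread in SCI-vehicle was not seen between replicates 2 and 3, where 216 mucosa-enriched genes were over 2-fold apart. Between pairs of Control libraries there were 222, 332 and 270 such genes. In SCI-vehicle replicate 1, 895 genes were more than 2-fold higher than in both other SCI-vehicle libraries, and 608 of these (67.9%) were mucosa-enriched. Of the 895, 255 were among the 1189 higher genes, which is 21.4% of them.

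Detrusor-enriched genes were more often lower than higher. Of 564 such genes, 122 were lower (21.6%) and 58 higher (10.3%) at an unadjusted p under 0.05, with a median log2 fold change of -0.23. When SCI-vehicle replicate 1 was left out, 84 were lower (14.9%) and 73 higher (12.9%), with a median of -0.12. When the class was defined from Control libraries, it held 768 genes, of which 215 were lower and 20 higher, and 147 were lower and 32 higher without SCI-vehicle replicate 1. The excess of lower genes was thus larger by the Control definition, which shares the Control detrusor libraries with the comparison and is therefore not independent of it.

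The counts of genes of neither class changed least in proportion when SCI-vehicle replicate 1 was left out. Of 13875 genes, 850 were higher (6.13%) and 723 lower (5.21%) with all libraries, and 759 were higher (5.47%) and 576 lower (4.15%) without it. The median log2 fold change was 0.00 and -0.01. Of the 12 genes called in edgeR (quasi-likelihood test), 3 of those that rose and 3 of those that fell were in this group.

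**Figure D4:**
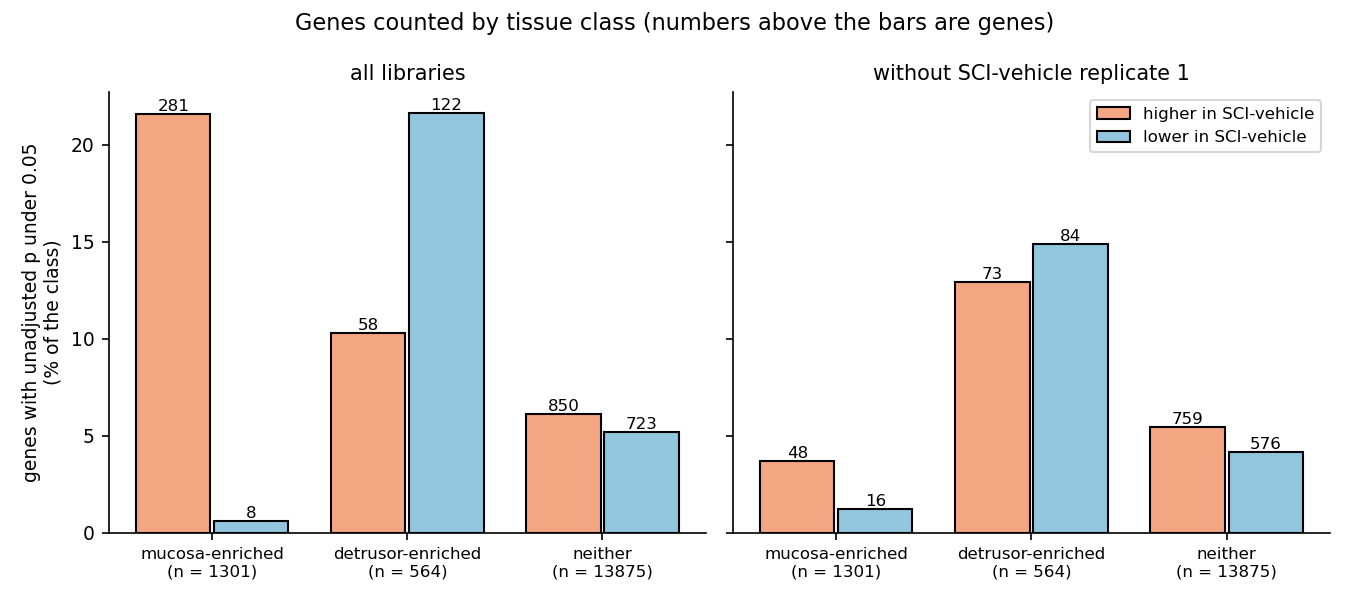
Bars give the percentage of each tissue class with an unadjusted p under 0.05, orange for genes higher and blue for genes lower in SCI-vehicle detrusor, with gene numbers above the bars and axes from 0. The mucosa-enriched bar went from 281 to 48 higher genes when SCI-vehicle replicate 1 was left out, and the bars of the genes of neither class went from 850 to 759 and from 723 to 576.

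Pairs of libraries showed how far the groups were apart. The median absolute difference in log2 CPM over the genes tested was 0.26 to 0.34 between Control libraries and 0.28 to 0.32 between SCI-vehicle libraries. Between a Control and a SCI-vehicle library it was 0.26 to 0.45. The smallest values of this range belonged to Control replicate 3, at 0.30, 0.26 and 0.30 from SCI-vehicle replicates 1, 2 and 3, and this library was as near to the SCI-vehicle libraries as to Control replicates 1 and 2, at 0.34 and 0.29. Without Control replicate 3, 739 genes were called by DESeq2, against 335 with all libraries.

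The effect of SCI-vehicle, that is injury together with injections, in detrusor was set against the effect in mucosa in a model of all 18 libraries. The difference between the effects (detrusor minus mucosa) had an adjusted p under 0.05 in edgeR (quasi-likelihood test) for 19 of 15740 genes (0.121%), and an unadjusted p under 0.05 for 1731 (11%). In 18 of them (0.114%) the effect was more positive in detrusor and in 1 (0.00635%) more negative. The fitted change of the 18 was positive in detrusor and negative in mucosa, each with an unadjusted p under 0.05 in either tissue, and the remaining gene had both directions reversed. Within the tissues, 1 of the 19 was among the 12 genes called in detrusor, and 0 genes had an adjusted p under 0.05 in mucosa in edgeR (1611 had an unadjusted p under 0.05). A large difference between the effects, by which the 19 were picked, favours opposite signs. None of the 19 was mucosa-enriched, 1 was detrusor-enriched and 18 were neither. These classes held 8.27%, 3.58% and 88.15% of all genes tested.

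ENSRNOG00000000525 had the smallest p of this test. While it rose in detrusor, its level in mucosa was 146.6, 156.7 and 111.6 CPM in Control and 58.1, 78.3 and 43.2 CPM in SCI-vehicle libraries. By the Control libraries the gene was neither mucosa-enriched nor detrusor-enriched. The mucosa groups did not overlap, with a log2 fold change of -1.20 whose adjusted p within mucosa was 0.208. The difference between the effects was 3.19 ± 0.35 on the log2 scale (SE; adjusted p = 0.00107 in edgeR (quasi-likelihood test)). With the replicate number within each group as a block for detrusor and mucosa, the adjusted p was 0.0202. The gene was called under each alternative run, with a difference of 2.96 to 3.44 whichever of the 12 libraries was left out.

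For the other 3 genes described above, a difference between the tissues was not established. The difference (detrusor minus mucosa) was 1.40 for ENSRNOG00000007338 (adjusted p = 0.219 in edgeR (quasi-likelihood test)), -1.61 for ENSRNOG00000016156 (adjusted p = 0.136) and -0.50 for ENSRNOG00000056772 (adjusted p = 0.572). Levels of ENSRNOG00000007338 in mucosa overlapped, at 59.1, 30.3 and 21.6 CPM in Control and 39.3, 44.8 and 47.1 CPM in SCI-vehicle libraries.

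At an unadjusted p under 0.05, 738 genes (4.69%) were higher and 873 (5.55%) lower in SCI-vehicle than in Control mucosa. Genes higher in both tissues numbered 156, which is 13.1% of the 1189 in detrusor and 21.1% of the 738 in mucosa, and 103 of them were mucosa-enriched. Without SCI-vehicle replicate 1 of detrusor, 43 genes were higher in both (4.89% and 5.83%). Genes higher in detrusor and lower in mucosa numbered 150 (12.6% of 1189 and 17.2% of 873), of which 6 were mucosa-enriched, 9 detrusor-enriched and 135 neither. They numbered 169 without SCI-vehicle replicate 1 (19.2% of 880 and 19.4% of 873). Genes lower in both numbered 59 (6.92% of 853), and 15 were lower in detrusor and higher in mucosa (1.76% of 853). Without this library they numbered 39 (5.77% of 676) and 28 (4.14% of 676). These last shares are near the 5.55% and 4.69% of all genes tested that were lower and higher in mucosa. In the remaining 5 detrusor libraries, the largest of the 4 overlaps was thus the one in opposite directions, higher in detrusor and lower in mucosa.

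**Figure D5:**
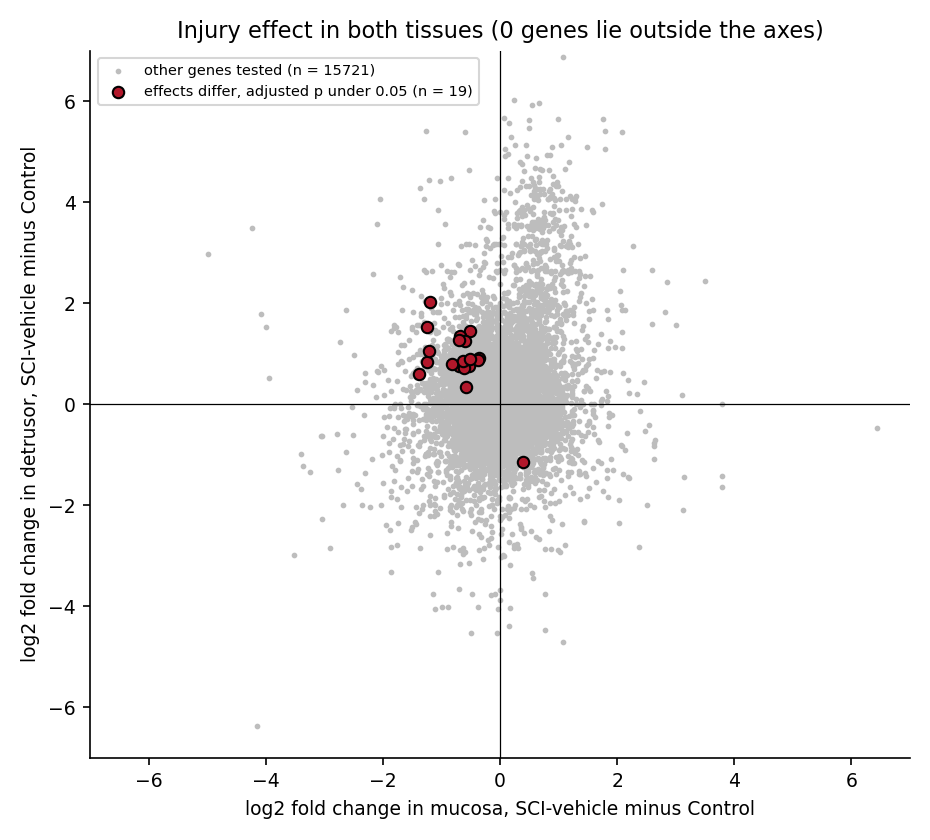
Each point is a gene, with the log2 fold change of SCI-vehicle minus Control in mucosa on the horizontal and in detrusor on the vertical axis. The 19 red points are genes whose effects differed at an adjusted p under 0.05, and 18 of them lie in the quadrant of higher levels in detrusor and lower levels in mucosa.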

How the data were processed

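Total RNA from detrusor and mucosa was depleted of ribosomal RNA and sequenced as paired-end reads. The authors deposited raw counts of reads on 32754 genes, summed over both flow cells, without normalization. The submitters' processing notes name Trim Galore 0.6.10, STAR 2.7.10a, featureCounts 2.0.3 and the build Rnor_6.0. All columns were mapped by their labels, and 0 entries lacked a gene.

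The 15740 genes above 1 CPM in 3 or more of 18 libraries were tested with edgeR 4.0.16 in R 4.3.3, by TMM scaling and the two-sided quasi-likelihood F test on the 9 detrusor libraries. The SE is the log2 fold change divided by the square root of F. The difference between tissues was tested as an interaction over 6 groups. The Benjamini-Hochberg adjustment covered all genes tested. Log2 CPM used a prior count of 2. Scripts were tested on simulated data. DESeq2 1.42.0, other filters and scalings, and leaving out each library were alternatives.

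The rule for named genes was every gene with an adjusted p under 0.05 and the 3 with the smallest interaction p. Of these, at most 2 identifiers that rose and 2 that fell are printed, those with the largest changes among the called genes. The 2 identifiers under other observations came from a search made after the values were seen and lie outside this rule. The comparison, the gene lists and the classes were chosen with earlier results of these data known. Planned pathway and cell type lists need gene names and were not run.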

Additional observations from a re-analysis of the deposited data

Results flagged for a closer look

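The effect of SCI-vehicle on ENSRNOG00000000525 differed between the tissues, by 3.19 on the log2 scale (detrusor minus mucosa; adjusted p = 0.00107 in edgeR, quasi-likelihood test of the interaction, and 0.0202 with the replicate number as a block). All 3 SCI-vehicle libraries were above the Control range in detrusor and below it in mucosa. In all, 19 genes differed between the tissues by this test, and 18 of them had a positive fitted change in detrusor and a negative one in mucosa. Of the 19, 1 passed the adjusted threshold in detrusor alone and 0 in mucosa alone. This number fell from 19 to between 1 and 9 in 10 of the 12 fits that left out 1 library. It was 1 without detrusor Control replicate 1 or 2 or detrusor SCI-vehicle replicate 3, 5 without detrusor SCI-vehicle replicate 2, and 3, 1, 2, 1, 9 and 3 without mucosa Control replicates 1 to 3 and mucosa SCI-vehicle replicates 1 to 3. It was 95 without detrusor Control replicate 3 and 44 without detrusor SCI-vehicle replicate 1.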

How the results depend on the processing

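The 12 genes became 335 with DESeq2, 170 without the filter on low counts (21062 genes), 6 with only the groups compared, 45 with all 18 libraries in one model, 22 without the 1526 genes mucosa-enriched by the Control definition, which is not independent of the comparison, and 3 with the share of mucosa as a covariate, under which 742 genes were higher and 551 lower at an unadjusted p under 0.05. The 19 genes of the interaction became 183 with DESeq2 and 41 without the filter. The cause was not tested. Leaving out each library gave 0 to 20 genes with an adjusted p under 0.05, 655 to 1536 higher and 493 to 1188 lower genes at an unadjusted p, and 1 to 95 genes in the interaction. DESeq2's size factors and edgeR's filterByExpr (13084 genes) gave 12 and 13 genes. The replicate number as a block gave 8 genes, 6 of them among the 12, and 19 in the interaction, where the adjusted p of ENSRNOG00000000525 was 0.0202. The deviations from the group means of same-numbered Control and SCI-vehicle detrusor libraries correlated at -0.05, -0.03 and 0.15, and 2 of 6 libraries correlated best with their own number, so the numbers were not used as pairs. The log2 fold changes of the 12 genes kept their sign, which the complete separation of their groups made all but certain when a library was left out. Without SCI-vehicle replicate 1, the balance of higher and lower genes turned from 162 and 273 to 180 and 173 among genes over 100 CPM, and from 240 and 40 to 43 and 52 among those over 4-fold. Planned counts of named gene lists were not run, since identifiers are not paired with names. With 3 libraries a group and a biological coefficient of variation of 26.5%, small changes were not detectable. Class counts from Control libraries, class counts without each library and DESeq2 without each library were added after seeing the data.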

Other observations

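Apart from the groups, 2 genes took one of 2 levels in libraries that shared a replicate number across tissues. They were found after the values were seen, in a search for genes whose 9 libraries had a gap of more than 4-fold in both tissues (on CPM plus 0.5, with at least 2 libraries on each side). The search found 3 genes, and for all 3 the same numbers of the same groups lay above the gap in detrusor and in mucosa. The third separated SCI-inosine from the other groups.

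ENSRNOG00000012067 had the largest fitted fall in detrusor, a log2 fold change of -6.37 that was not called (adjusted p = 0.208 in edgeR, quasi-likelihood test). It had 260 and 239 counts in detrusor of Control replicates 2 and 3 and 285 in SCI-inosine replicate 3, and 6 in Control replicate 1, 3, 2 and 2 in SCI-vehicle replicates 1 to 3, and 8 and 18 in SCI-inosine replicates 1 and 2. In mucosa, the same numbers had 174, 144 and 147 counts, and the other 6 libraries had 4 to 11. The difference between SCI-vehicle and Control thus rested on 2 of the 3 Control libraries.

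ENSRNOG00000014118 had 26 counts in detrusor of Control replicate 2, 30 in that of SCI-vehicle replicate 3, and at most 1 in the other 7. In mucosa, the same pair had 66 and 54 counts and the other 7 libraries at most 1. The labels do not state which libraries share a rat. Across all genes, the deviations of same-numbered libraries of both tissues from their group means correlated at 0.01 to 0.23, and 6 of 6 Control, 4 of 6 SCI-vehicle and 4 of 6 SCI-inosine libraries correlated best with their own number.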
